A study of Rattus norvegicus with 15 samples.

Results

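Cadherins, claudins and connexins are the membrane proteins by which neighbouring cells hold, seal and couple to each other. On an array of 41012 probes hybridized with RNA from rat olfactory epithelium, 128 probes of 98 genes carried the name of a cadherin (Cdh), protocadherin (Pcdh), desmosomal cadherin (Dsc, Dsg), claudin (Cldn), connexin (Gja to Gje) or zonula occludens protein (Tjp), and all 128 are accounted for here. The rule that chose them uses gene names only. Occludin (Ocln) belongs to the same rule, but no probe among those analysed carried its name.

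The olfactory epithelium, dissected from the back of the nose, came from 8 untreated Brown Norway rats aged 6 weeks, 4 males (rats 1, 2, 5 and 6) and 4 females (rats 3, 4, 7 and 8). Each nostril (A or B) was hybridized on its own, and male 1 contributed nostril A only, which made 7 male and 8 female arrays. Every array was a one-color hybridization, and the arrays lay on 4 glass slides. Slide 1 held males 1 and 2 with nostril A of female 3, slide 2 nostril B of female 3 with female 4, slide 3 males 5 and 6, and slide 4 females 7 and 8. Sexes, animals and nostrils are compared here. The tissue is a mixture of cell types, and in such bulk samples fewer cells of a type and less RNA per cell cannot be told apart.

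Each array had between 26233 and 28741 probes well above background, and 84 to 97 of the 128 junction probes were among them. The tissue label was checked against marker genes. All 9 probes for mature olfactory neurons, among them Omp and Adcy3, were detected on all 15 arrays, as were all 4 probes for immature neurons and all 3 for sustentacular cells, the supporting cells of this epithelium. Neither of the 2 squamous epithelium probes (Krt10, Ivl) was detected on any array, and of the 3 basal cell probes the 2 for Trp63 were detected on all 15 arrays and the 1 for Krt14 on none. Of 9 bone probes, 8 were on all 15 arrays, with a mean level from 7.68 to 9.68 (log2, relative to the array median). The mean level of the 3 skeletal muscle probes measured was 2.74 on nostril A of female 7 and 1.02 on nostril A of male 6, against -0.95 to -0.27 on the other arrays. The mean of 4 red blood cell probes ran from 3.01 to 7.45.

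Cadherins bind their own kind on the next cell through repeated calcium-binding domains, and in adherens junctions their tails hold catenins and, through them, actin. Desmosomal cadherins do the same with intermediate filaments. Claudins form the strands of the tight junction and set which ions pass between cells, with Tjp proteins as the scaffold beneath. Connexins assemble into hemichannels, and opposing hemichannels make a gap junction, through which small molecules pass from cell to cell. In the olfactory epithelium tight junctions ring the sensory neurons and sustentacular cells at the surface, while the layer beneath holds axons wrapped by ensheathing glia, vessels, glands and connective tissue.

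The results turn on a small set of probes, whose sequences are given here as they stand in the array annotation (60 bases, 5′ to 3′, transcript sense, coordinates of rat build rn3). The annotation does not say whether a probe lies in an exon or an untranslated region, and each probe shown has at least 1 sense reading frame free of stop codons. No letters are in capitals because the whole probe binds the transcript. The first 3 probes read epithelial claudins that were detected on every array: Cldn3 at chr12:771373-771432 on the minus strand, Cldn4 at chr12:22687607-22687666 on the plus strand and Cldn7 at chr10:56826099-56826269 on the plus strand, where the annotated span is longer than the probe.
Cldn3: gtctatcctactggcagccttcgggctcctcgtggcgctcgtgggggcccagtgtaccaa
Cldn4: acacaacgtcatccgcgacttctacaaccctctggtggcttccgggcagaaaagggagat
Cldn7: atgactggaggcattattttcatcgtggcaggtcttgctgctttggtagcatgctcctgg
The next pair reads junction proteins of blood vessel endothelium that differed in the number of arrays well above background. They are Cldn5 at chr11:1224740-1224799 and Cdh5 at chr19:788852-790286, both on the minus strand.
Cldn5: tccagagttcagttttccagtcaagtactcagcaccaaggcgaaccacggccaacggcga
Cdh5: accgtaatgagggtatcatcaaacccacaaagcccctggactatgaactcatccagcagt
The next 3 probes carry the results on nostrils and animals: Cdh13 at chr19:49571166-49571225 on the plus strand, Pcdh7 at chr14:57323562-57323621 and Pcdh9 at chr15:76750567-76750626, both on the minus strand.
Cdh13: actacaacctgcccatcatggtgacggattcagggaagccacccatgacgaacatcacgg
Pcdh7: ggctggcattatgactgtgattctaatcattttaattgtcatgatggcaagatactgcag
Pcdh9: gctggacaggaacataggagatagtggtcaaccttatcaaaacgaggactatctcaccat
The last pair belongs to 1 gene, Pcdh11x, and disagreed in full, A_44_P218059 at chrX:110002944-110003003 and A_44_P550938 at chrX:110630944-110631003, both on the plus strand.
A_44_P218059: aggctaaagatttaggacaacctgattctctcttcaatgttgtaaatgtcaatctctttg
A_44_P550938: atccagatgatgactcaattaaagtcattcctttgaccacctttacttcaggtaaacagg

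Most junction genes were detectable. A probe was called expressed when it was well above background on at least 11 of the 15 arrays, weakly expressed on 1 to 10 and not expressed on none. Of the 128 probes, 89 (69.5%) were expressed, against 65.1% of all probes on the array, 16 were weakly expressed and 23 were not expressed. Counting each gene by its best probe, 71 of the 98 genes were expressed, 13 weakly and 14 not at all, and 63.5% of all genes named on the array were expressed. A probe without signal may also be one that binds poorly, so a gene below detection is one whose probe was not well above background. By a looser call, a signal positive and significant against background, 104 of the 128 probes (81.25%) reached 11 arrays, against 76.7% of all.

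**Figure D1:**
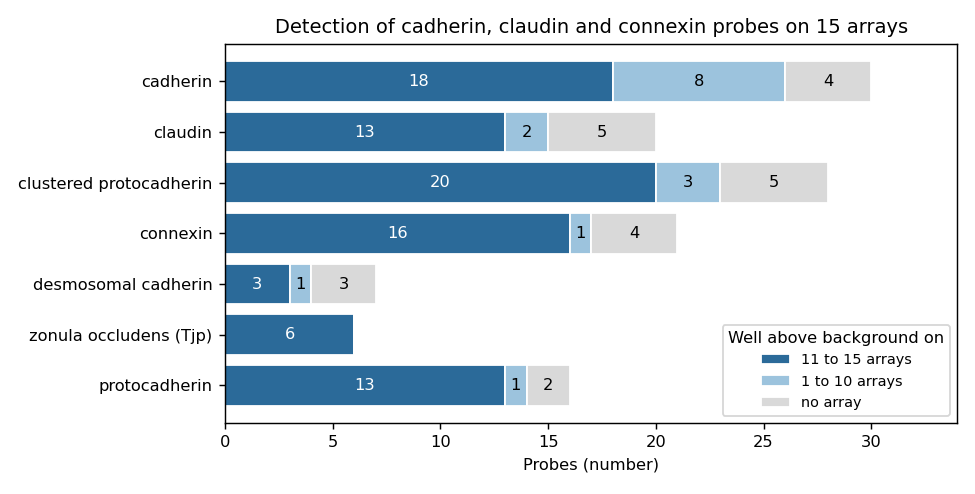
Number of probes (x axis) per junction gene family (y axis), split by the number of the 15 arrays on which a probe was well above background. All 6 zonula occludens probes were expressed, against 3 of 7 desmosomal cadherin probes and 18 of 30 cadherin probes.

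Of 18 claudin genes, 12 were expressed, and by probe the share was 65% (13 of 20), against 65.1% of all probes. The 12 were Cldn3, Cldn4, Cldn5, Cldn6, Cldn7, Cldn8, Cldn9, Cldn10, Cldn11, Cldn14, Cldn22 and Cldn23, each on all 15 arrays. Cldn2 and Cldn16, which make cation pores in leaky and renal epithelia, were not detected on any array, and neither were Cldn15 and Cldn17. Cldn19, another renal claudin, was detected on 1 array. All 6 probes of the Tjp scaffold genes were expressed. Cldn3, a barrier claudin, ran from 6.51 to 7.00 across the 15 arrays with a median of 6.89, and Cldn7 ran from 6.80 to 7.22. Both probes of Cldn4, another barrier claudin, were detected throughout, A_44_P299550 from 3.97 to 4.48 and A_44_P975437 from 5.97 to 6.83. Cldn8 and Cldn22 ranged more widely, from 1.57 to 2.60 and from 1.06 to 2.51. Levels are log2 of the signal relative to the array median and are compared within a probe only, since probes differ in brightness.

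Among cadherins, Cdh1 (E-cadherin, of epithelia) ran from 6.56 to 7.14, Cdh2 (N-cadherin, of neurons) from 4.25 to 4.74 and Cdh23, a component of the tip links of hair cells, from 2.41 to 2.91, all detected on all 15 arrays. Cdh11, a cadherin of mesenchymal cells, was detected on all arrays by each of its 4 probes, and Cdh15 (M-cadherin, of muscle precursors) by its only probe, from 1.58 to 2.59. Cdh9 was not detected, and Cdh5, Cdh7, Cdh8, Cdh16 and Cdh19 were weakly expressed. Cdh5 (VE-cadherin, the adhesive cadherin of endothelium) was detected on 1 array by A_43_P19735 and on none by A_44_P121658. By the looser positive-and-significant call these Cdh5 probes were on 15 and 12 arrays. Cldn5, the claudin of the endothelial barrier, was on the other hand detected on all 15 arrays, from 3.35 to 5.02. Other endothelial genes were divided in the same way, with 6 of their 13 probes on all arrays, among them Kdr and Esam, and 5 on none, among them both probes of Flt1 and both of Tek.

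Of the 7 desmosomal cadherin probes 3 were expressed (42.9%). Dsg2 and Dsc2, the pair found in simple epithelia, were expressed on all 15 arrays, whereas Dsc1, Dsc3 and Dsg4 were not detected, and Dsg1c, a desmoglein of stratified epithelia, was detected on 2 arrays. Dsg2 ran from -1.54 to -0.88 and Dsc2 from 1.97 to 2.33 with its probe A_43_P19054. All 22 probes for plaque partners of cadherins and desmosomes, including catenins, desmoplakin (Dsp) and plakophilins, were expressed. Of the 47 partner genes of junctions examined, 67 of 68 probes were expressed, and the remaining probe, for Inadl, was not detected.

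Of the 18 connexin genes 14 were expressed, and by probe 16 of 21 (76.2%). Gja1, the connexin of many epithelial, glial and connective tissue cells, ran from 5.10 to 6.21 with A_44_P393551, Gjb2 from 3.98 to 5.45, Gjb6 from 2.50 to 4.69, and Gjb1, a connexin of liver and myelinating cells, from -0.13 to 0.57. Gja4 and Gja5, connexins of arterial endothelium, were both on all 15 arrays, as was Gja9 (now Gjd2), the connexin of electrical synapses between neurons. Gja12, a connexin of myelinating glia, was nearer the limit, on 11 and 12 arrays with its 2 probes. Gja6, Gja10 and Gje1 (now Gjc3) were not detected.

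The protocadherins fall into those of 1 large gene cluster, whose members are combined differently from neuron to neuron, and those outside it. The clustered probes lay between positions 29699012 and 30743362 of chromosome 18, and 20 of 28 were expressed, covering 18 of 23 genes. Pcdhb6 and Pcdhga11 were not detected. Outside the cluster 9 of 11 genes were expressed, among them Pcdh8, a regulator of cadherin adhesion at synapses, and Pcdh21 (now Cdhr1), known from photoreceptors and mitral cells, which ran from 10.03 to 10.52. Pcdh12, an endothelial protocadherin, was detected on 1 array and Pcdh20 on none.

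For 9 of the 23 genes with several probes, the probes disagreed on detection. Gja1 was on all 15 arrays with A_44_P393551 at chr20:35435826-35435885 and on none with A_44_P278604 at chr20:35435621-35435680. Cdh17 was on all arrays with A_43_P13004 and on none with A_44_P132825, and the same held for the Pcdh11x pair shown above and for Pcdhgc3. By the looser positive-and-significant call A_44_P466500 of Pcdhgc3 was on all 15 arrays, A_44_P132825 of Cdh17 on 10 and A_44_P550938 of Pcdh11x on 0. Pcdhga5 was on 13 arrays with A_43_P22263 and on none with A_44_P144900, and the 3 probes of Cdh10 were on 11, 3 and 2 arrays. Cdh8 was on 1 and 0 arrays. Calls of absence for a gene with 1 probe rest on that probe alone, which was the case for 75 of the 98 genes.

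The sexes were compared over 4 males and 4 females after averaging the nostrils of a rat. No junction probe passed a false discovery rate of 1% by limma's moderated test with Benjamini-Hochberg adjustment, out of 90 tested, against 12 of 27625 probes (0.0434%) in all, and none passed 5%, against 0.0724% of all. An unadjusted p under 0.05 was reached by 17 of the 90 (18.9%), close to the 17.1% of all tested probes. Of these 17, 13 were higher in females and 4 in males, and with scaling to the 75th percentile the split was 10 to 6. Over all probes with such a p the split was 3376 to 1355, and 2657 to 2199 with the other scaling. The median difference of the 90 probes, females minus males, was 0.03 on the log2 scale and 0.00 (-0.0015 before rounding) with 75th percentile scaling. The members with the smallest p are described next.

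**Figure D2:**
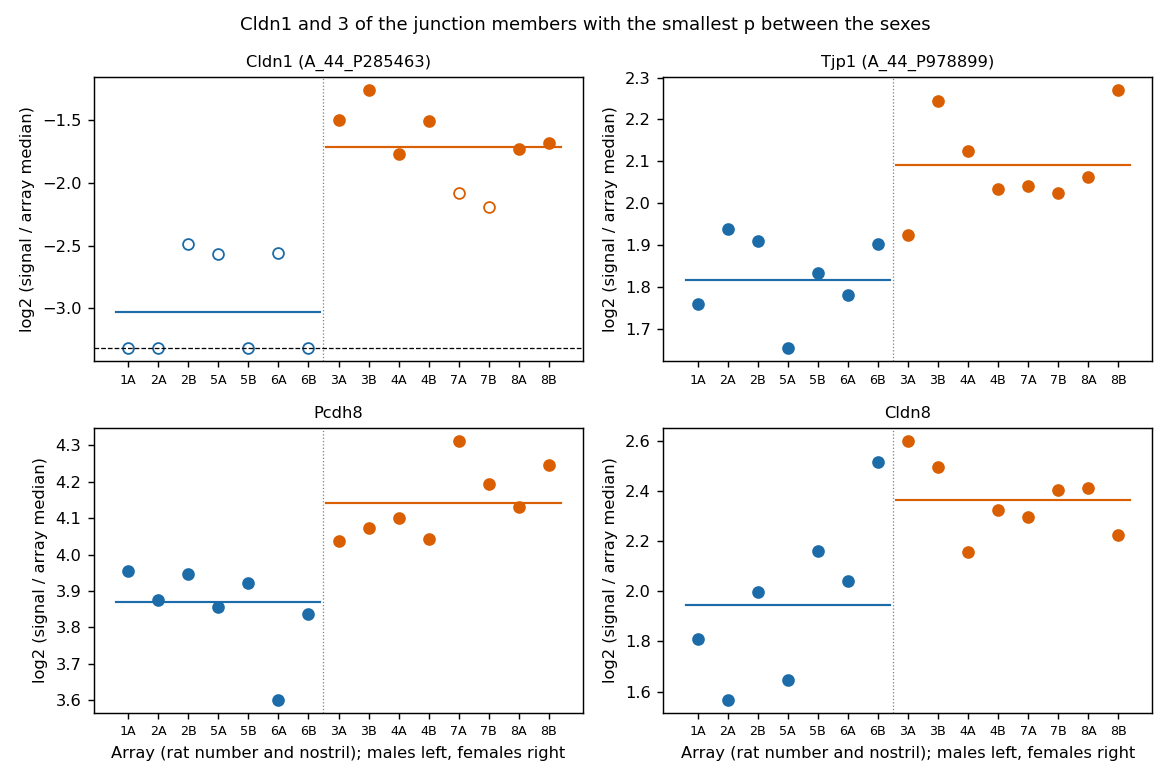
Log2 signal relative to the array median (y axis) of 4 junction probes on the 15 arrays (x axis), males in blue and females in orange, with lines at the mean of the 4 rats of each sex. Filled points are well above background, open points are not, and the dashed line is the floor at -3.32. Cldn1 was well above background on 6 female arrays and no male array, and the rat means of Tjp1 and Pcdh8 did not overlap between the sexes.

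Tjp1 encodes zonula occludens protein 1, the scaffold of the tight junction. With A_44_P978899 the 4 male rats stood at 1.76, 1.93, 1.74 and 1.84 and the 4 female rats at 2.08, 2.08, 2.03 and 2.17. The groups did not overlap, and the difference was 0.27 ± 0.07 (SE, 8 rats), or 1.21-fold, with a limma adjusted p of 0.123. The neighbouring probe A_44_P978901 gave 0.22 ± 0.07 in the same direction, whereas A_44_P238710 (chr1:119770020-119770079) and A_44_P314634 (chr1:119786523-119786582) gave -0.08 ± 0.08 and -0.12 ± 0.16. On slide 1, which held both sexes, nostril A of female 3 exceeded the 3 male arrays by only 0.05 with A_44_P978899. With slide as a fixed block, a fit that rests on this slide, the estimate was that same 0.05.

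Pcdh8 stood at 3.96, 3.91, 3.89 and 3.72 in males and at 4.05, 4.07, 4.25 and 4.19 in females, again without overlap, a difference of 0.27 ± 0.07 (SE, 8 rats) with an adjusted p of 0.132. Within slide 1 the difference was 0.11. Treating the 15 arrays as independent samples, which counts the nostrils of a rat as separate animals, brought Pcdh8 to an adjusted p of 0.00659, and it was the only junction probe past 1% in that fit. Cldn8, a claudin of tight sodium-absorbing epithelia, had the larger difference of 0.42 ± 0.12, with males at 1.81, 1.78, 1.90 and 2.28 and females at 2.55, 2.24, 2.35 and 2.32, so male 6 lay among the females. Its adjusted p was 0.139 and the difference within slide 1 was 0.81. The clustered protocadherins Pcdhb14 (0.34 ± 0.10, adjusted p = 0.154) and Pcdhb17 (0.37 ± 0.12, adjusted p = 0.163) completed the 5 smallest p-values.

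Rat means did not overlap between the sexes for 8 of the 90 probes, 6 higher in females (8.82% of all probes were so) and 2 higher in males (2.52% of all). The 6 were both neighbouring Tjp1 probes, Pcdh8, Pcdh1, Pcdhb1 and Pcdhb17, and the 2 were Pcdhgc3 and Gja12 with A_43_P17277. With its other probe, A_44_P494221, Gja12 stood at -1.48, -1.52, -1.51 and -1.60 in males and at -2.12, -2.46, -2.07 and -1.60 in females, so female 8 lay among the males. The difference there was -0.53 ± 0.18 (SE), with an adjusted p of 0.181. Outside the gene cluster, 11 of 13 protocadherin probes were higher in females, and 4 of the 13 belong to Pcdh9, against 52.1% of all probes. The count was 11 with 75th percentile scaling, where 12638 of all 27625 probes were higher in females, and 10 with quantile normalization, where 13902 were. Connexins showed 5 of 16 probes higher in females. Beside these values, the mean level of the sustentacular list was 9.65 to 9.84 in females and 9.39 to 9.61 in males, and that of 4 ciliated cell probes 4.39 to 4.57 and 4.17 to 4.33, neither overlapping. The ciliated list includes Ccdc39 A_44_P379924, a probe that the study itself listed as higher in females. The part of cell content in the differences above was not tested.

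Claudin 1 (Cldn1) belongs to barrier epithelia such as skin. Its probe A_44_P285463 (chr11:76545172-76545231) fell outside the tested set because it was detected on 6 arrays, too few for the filter. All 6 were female, and 0 of 7 male arrays were well above background. By the looser positive-and-significant call the probe was on all 15 arrays, those of males included. Male arrays ran from the floor of -3.32, where 4 of them lay, to -2.49, and female arrays from -2.19 to -1.26, without overlap. Both arrays of female 7, at -2.08 and -2.19, were not called well above background. The means of the rats were -1.71 in females and -3.03 in males. No fold is given, since no male array was well above background. Both arrays of female 7 also lay above the lowest detected signal of their own array without being called. In a fit over all 41001 probes without the filter the adjusted p was 0.0683, short of 1%. Detection on no male array and on at least 6 female arrays was met by 17 of 41012 probes (0.0415%), and detection on no female array and at least 5 male arrays by 3 (0.00731%). The other Cldn1 probe, A_43_P12641 at chr11:76544059-76544118, stood at the floor on all arrays. Cdh16, a cadherin of kidney, was likewise detected on 4 female arrays and no male array with A_43_P21893, but its rat means overlapped between the sexes. This Cdh16 probe too was on all 15 arrays by the looser call.

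The next comparison asked whether rats of the same sex differed by more than the nostrils of a rat did, by limma's F-test across the 27574 probes measured on all 15 arrays. At 1%, 2 junction probes of 90 (2.22%) were called, beside 768 probes (2.79%) in all. At 5% the counts were 7 of 90 (7.78%) and 16.1% of all, and an unadjusted p under 0.05 was reached by 34 of 90 (37.8%) and 37.1% of all. Both calls fell on protocadherins outside the gene cluster, Pcdh7 and Pcdh9, of which the Pcdh9 call was lost on leaving out any 1 of 6 rats (adjusted p 0.0104 to 0.0203) and without the filter on low values (0.0122). The 5 others at 5% were 2 further Pcdh9 probes, Pcdh3 (now Pcdhb12), Gja5 and Cldn14.

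Pcdh7, a protocadherin of brain and heart, stood at 5.48, 5.28, 5.34 and 5.39 in rats 1 to 4 and at 4.88, 4.95, 5.04 and 4.95 in rats 5 to 8. The 2 sets did not overlap and differed 1.34-fold, and they lay on different slides, 1 and 2 against 3 and 4. The F-test gave an adjusted p of 0.00164. With slide as a fixed block, which compares only rats sharing a slide, the adjusted p was 0.268. The largest difference between 2 rats on 1 slide was 0.20, between males 1 and 2. Pcdh9, with A_44_P520441, showed the same order: 6.05, 5.71, 5.80 and 5.83 in rats 1 to 4 and 5.56, 5.45, 5.44 and 5.40 in rats 5 to 8, an adjusted p of 0.00526 and, with the slide block, 0.251.

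**Figure D3:**
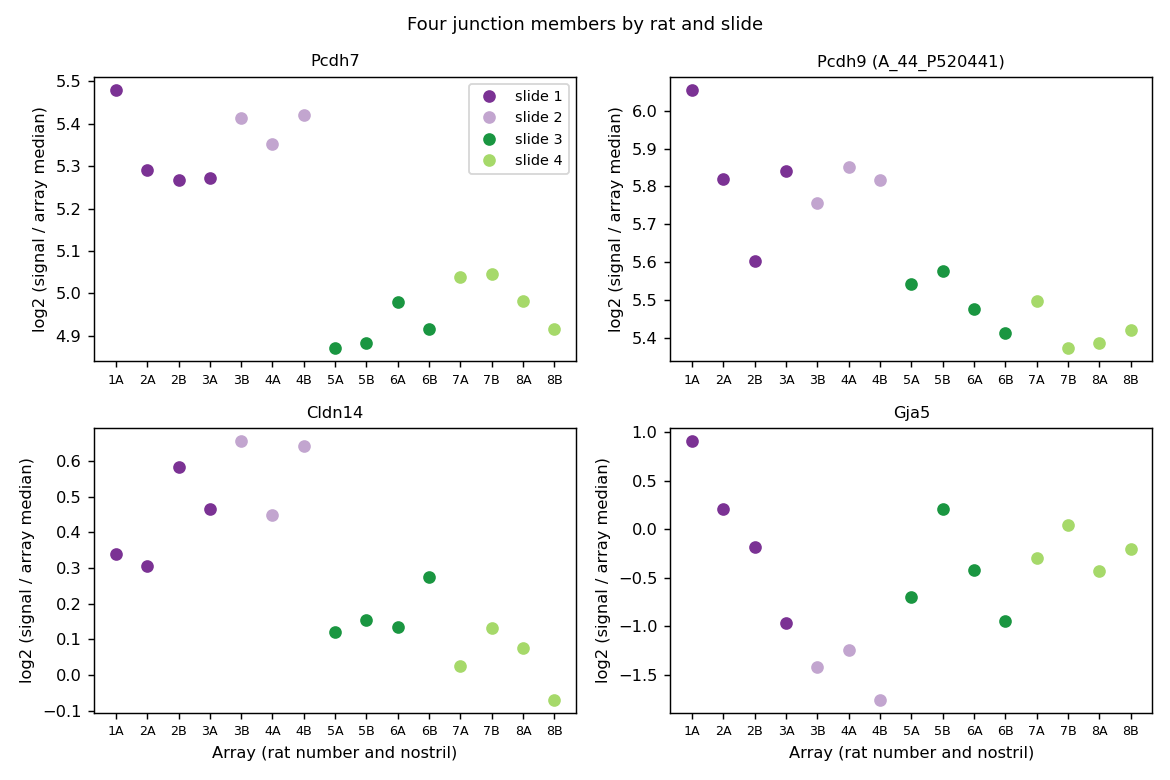
Log2 signal relative to the array median (y axis) of Pcdh7, Pcdh9, Cldn14 and Gja5 on the 15 arrays (x axis), colored by slide. Pcdh7, Pcdh9 and Cldn14 were higher in every rat of slides 1 and 2 than in any rat of slides 3 and 4, while Gja5 was highest in male 1 and lowest in females 3 and 4.

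Rats on slides 1 and 2 all stood above those on slides 3 and 4 for 5 of the 90 junction probes (4.61% of all probes), which were Pcdh7, 2 Pcdh9 probes, Cldn14 and 1 Tjp1 probe. They all stood below for another 5 (6.75% of all), among them Cldn22, Tjp3, Gjb1 and 1 Dsc2 probe. The difference of Cldn22, rats 1 to 4 minus rats 5 to 8, was -0.60. Slide and anything else that rats 1 to 4 shared cannot be told apart. The basal and muscle marker lists also split this way, whereas the other lists measured overlapped between these rats. The 2 basal cell probes, both for Trp63, averaged 1.71 to 2.30 in rats 1 to 4 and 2.43 to 2.82 in rats 5 to 8. The 3 muscle probes averaged -0.88 to -0.64 in rats 1 to 4 and -0.52 or more in rats 5 to 8. The part of basal cells and muscle in the calls was not tested. With slide as a block, 1 probe of 27574 (0.00363%) and no junction probe passed 1%.

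Gja5, the arterial connexin, had the widest spread among rats of all 90 probes, 2.41 on the log2 scale or 5.30-fold. It stood at 0.91 in male 1, 0.01 in male 2, -0.24 in male 5 and -0.68 in male 6, and at -1.19, -1.50, -0.12 and -0.32 in females 3, 4, 7 and 8. Its adjusted p was 0.0313, or 0.474 with the slide block. Rats sharing a slide also differed, males 1 and 2 by 0.89, and female 3 on slide 1 lay 1.28 below the males there. The other connexin of arterial endothelium, Gja4, had its highest level in male 2, and the 7 endothelial probes measured averaged 1.42 in male 1, the lowest of the 8 rats, and 1.49 to 2.09 in the others. The part of endothelium in the Gja5 values was not tested. Cldn11, a claudin of myelin and of glands, ranged over 1.42 and Gja3 over 1.77. At the other end, Pcdh21 ranged over 0.21 among rats, Cldn7 over 0.34 and Cldn3 over 0.37. The median range was 0.55 for the 90 junction probes and 0.47 for all probes. By family it was 0.86 for connexins, 0.83 for cadherins and 0.39 for the Tjp probes.

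Between nostrils no probe passed 1% with rat as a block, junction genes included, and 5 of 90 junction probes (5.56%) had an unadjusted p under 0.05, against 5.89% of all. These were Pcdhb10, Cdh1, Cldn10, Cdh22 and Gjb6, each with an adjusted p of 0.781. Pcdhb10 was lower in nostril B in all 7 rats, by 0.15 ± 0.05 (SE) on average. The nostril effect did not pass 1% for a difference between the sexes at any probe either, and 5 of 90 junction probes (5.56%) had an unadjusted p under 0.05 for it, against 3.08% of all. Of the junction probes Cldn8 had the smallest p there, with a mean difference of nostril B minus A of 0.47 in males and -0.00497 in females and a limma adjusted p of 1.00.

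Within single rats, however, some cadherins differed widely between nostrils, in directions that varied from rat to rat. Cdh13 (T-cadherin, a cadherin anchored by lipid) stood at 2.57 in nostril A of female 3 and at 0.26 in nostril B, a 4.98-fold difference. In female 7 the order was turned, 0.88 in A and 2.21 in B. The second Cdh13 probe gave 2.10 and -0.12 in female 3, and 0.26 and 1.70 in female 7. Gjb6 differed 3.51-fold between the nostrils of female 3. Cdh10 was detected in nostril A of that rat at -0.67 and lay at the floor, not well above background, in nostril B. Cdh22 differed 3.14-fold in female 4, and Cdh6, a cadherin of developing kidney and brain, 2.28-fold in the same animal. At least a 2-fold difference was seen for 5 junction probes in female 3, 5 in female 7, 4 in female 4, 4 in male 6 and 3 in male 2, and for none in male 5 and female 8. Those counts are 5.56%, 5.56%, 4.44%, 4.44%, 3.33% and 0% of the 90, and over all probes the shares were 2.78% in female 3, 1.31% in female 7, 3.01% in female 4, 1.96% in male 6, 1.45% in male 2, 1.43% in male 5 and 0.631% in female 8. The nostrils of female 3 lay on different slides, those of the other rats on 1 slide each.

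**Figure D4:**
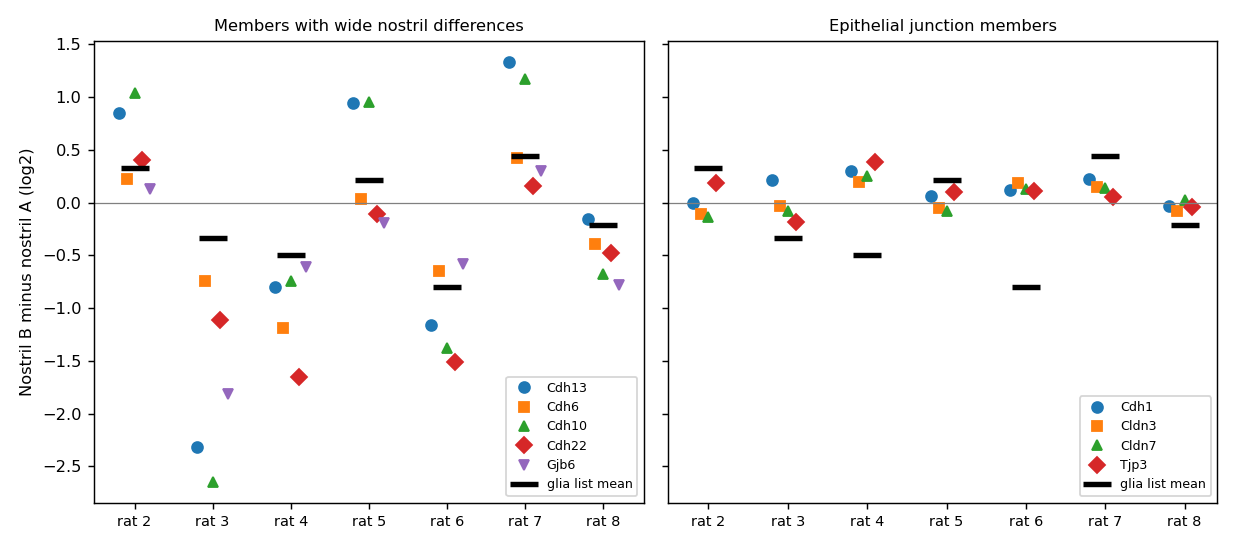
Difference between nostrils B and A (y axis, log2) in each of the 7 rats with both nostrils (x axis), for 5 members with wide differences (left) and 4 epithelial junction members (right). Black bars are the mean of 7 glial probes. Cdh13, Cdh6 and Cdh10 lay on the side of the glial mean in all 7 rats, with Cdh10 at the floor in nostril B of rat 3, and the 4 members on the right (Cdh1, Cldn3, Cldn7 and Tjp3) stayed between -0.19 and 0.38.

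Some of these differences were on the side of glial markers. The mean of 7 glial probes (among them those for Fabp7, Sox10 and Mbp) was lower in nostril B by 0.34 in female 3, 0.50 in female 4, 0.80 in male 6 and 0.21 in female 8, and higher by 0.33 in male 2, 0.21 in male 5 and 0.44 in female 7. The same side was taken in all 7 rats by 6 junction probes: both Cdh13 probes, Cdh6, the Cdh10 probe tested, 1 Cdh22 probe and Pcdh3. That is 6.67% of the 90, against 1.78% of all probes. The opposite side was taken in all 7 rats by 2 junction probes, Cldn6 and Pcdhb17 (2.22% of the 90, against 2.48% of all). Gjb6 and the other Cdh22 probe matched in 6 rats. Glia was 1 of 12 marker lists compared in this way, and the other lists were matched in all 7 rats by 0 to 3 junction probes each. For the 6 fibroblast probes it was 1 junction probe, Gja1 (1.11%, against 1.26% of all), with 2 on the opposite side (2.22%, against 0.613% of all). S100b, another glial gene, was not detected on any array. The lists were set beside the members after their values had been seen, and the part of glia or connective tissue in these differences was not tested.

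Among epithelial members, Cdh1 was higher in nostril B in 5 of 7 rats, by 0.13 ± 0.04 (SE) on average, and its largest difference was 0.30. The largest difference was 0.19 for Cldn3, 0.255 for Cldn7, 0.46 for each Cldn4 probe, 0.51 for Cldn8 and 0.89 for Cldn22. The median absolute difference was 0.32 for cadherin probes, 0.21 for connexin probes, 0.13 for claudin probes and 0.12 for Tjp probes, against 0.11 for all probes tested. Pcdh11x was exceptional in 1 array, standing at -0.02 in nostril A of female 7 and between -1.66 and -0.68 on the other 14. That was the array with the highest muscle level, and muscle was not tested as its source.

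Probes of 1 gene mostly ranked the rats alike. At least 2 probes were tested in each of 12 genes, giving 27 pairs over 8 rat means, and 22 pairs had a Pearson's r above 0, with a median of 0.81. After Benjamini-Hochberg adjustment over the 27 pairs, 15 pairs of 8 genes had a p under 0.05 by exact permutation. The permutation takes the 8 rats as exchangeable, and these p-values do not allow for rats sharing slides. The Cdh13 pair reached r = 0.98 (exact permutation p = 0.000198, adjusted p = 0.00268; Spearman's rho = 0.93, p = 0.00223, adjusted p = 0.0201), and r was 0.95 without the 2 rats farthest from the median. All 6 Cdh11 pairs passed, with r from 0.81 to 0.98, and r was 0.46 to 0.93 without the 2 rats farthest from the median.

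**Figure D5:**
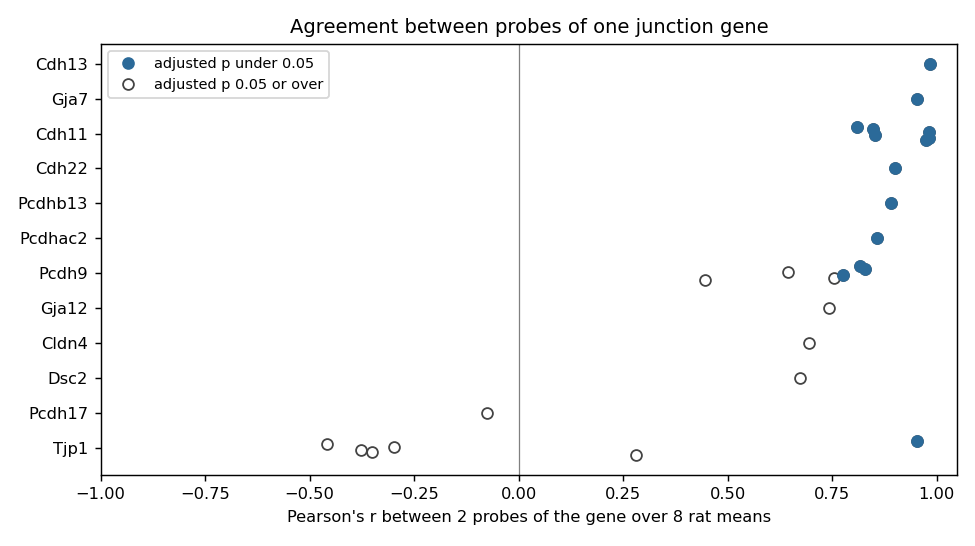
Pearson's r over 8 rat means (x axis) for each of 27 pairs of tested probes of the same gene (y axis), filled where the adjusted p of the exact permutation test was under 0.05. Most pairs lay above 0.6, while 5 of the 6 Tjp1 pairs and the Pcdh17 pair lay below 0.3.

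For Tjp1 and Pcdh17 the probes did not all rank the rats alike. The Tjp1 probes A_44_P978899 and A_44_P978901 (chr1:119764303-119764362 and chr1:119764477-119764536) gave r = 0.95 (exact permutation p = 0.00062, adjusted p = 0.00419; Spearman's rho = 0.88, p = 0.00724, adjusted p = 0.0279), and r was 0.88 without the 2 farthest rats. The other 5 Tjp1 pairs ran from -0.46 to 0.28, with adjusted p-values of 0.326 to 0.52. The differences between the sexes given above for Tjp1 rest on the former pair alone. The 2 Pcdh17 probes had r = -0.07 (exact permutation p = 0.873; rho = 0.02, p = 0.977), or 0.08 with 75th percentile scaling. Among Pcdh9 pairs, 3 of 6 passed, and A_44_P520441, called between rats, correlated with A_44_P354008 at r = 0.45 (exact permutation p = 0.265, adjusted p = 0.326; rho = 0.36, p = 0.389) and at 0.17 without the 2 farthest rats.

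Partner genes of the junctions were tested in the same fits. Of 67 tested probes for catenins, plaque proteins, nectins, tight junction partners, pannexins and other cadherin relatives, none passed 1% between the sexes and 6 (8.96%) had an unadjusted p under 0.05, against 17.1% of all probes. Between rats 3 probes (4.48%) passed 1%, against 2.79% of all, 1 each of Ctnnb1 (beta-catenin, the link from cadherins to actin), Clstn2 (a calsyntenin of synapses) and Pard6a (of the polarity complex at tight junctions), with adjusted p-values of 0.00741, 0.00198 and 0.00887. Each was above 0.07 with slide as a block (0.336, 0.0774 and 0.809). None passed between nostrils, where 8 of 67 (11.9%) had an unadjusted p under 0.05, against 5.89% of all.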

How the data were processed

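Total RNA of 15 olfactory epithelia was labeled with Cy3 and hybridized to Agilent whole rat genome arrays. The authors extracted spot intensities with Agilent Feature Extraction 9.5.1.1, and the deposited intensity is background-subtracted but not scaled between arrays. The other columns used are the software's flags for outlier, saturated and well-above-background spots. Ratio values deposited beside them, each a signal divided by its array median and its probe median (within 2% for 99.98% of values at 20352 probes), served as an alternative. Gene names and rn3 positions come from the array annotation. Current symbols came from RefSeq through 61 member accessions.

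Outlier spots were left out, spots of a probe averaged, signals divided by the array median, floored at 0.1 of it and log2-transformed. Log2 values of deposited intensities at the floor (-3.32) have no order. Probes detected on at least 7 arrays were tested: 27625 on rat means and 27574 on single arrays. limma 3.58.1 in R 4.3.3 (lmFit, eBayes) was used two-sided, with a trend except where nostril differences were compared between the sexes. Adjustment was by Benjamini-Hochberg over all tested probes, with a threshold of 1%. The fits were tested on simulated data. Probe pairs were tested by exact permutation of the 8 rats (scipy 1.17.1).

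The members and lists were chosen with earlier results of these data known. Named were members past 1% or with the 5 smallest p in a comparison, the 3 widest-ranging per family, genes fixed by role and genes whose probes differed in detection, plus members at 5% and those in small counts, named after their values were seen. Suppliers were not analysed here. The number of animals limits the precision. Alternatives covered scaling, background, floor, filter, blocks, the ratio table, the methods' t-test and leaving out each rat. Values of some members and markers are not reported here.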

Additional observations from a re-analysis of the deposited data

Results flagged for a closer look

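Among the 60 named probes tested, 120 groups of 4 rats were examined for a rat standing apart from the other 3 of its sex, by Dixon's test of its gap to the nearest against the group's range, which chance gives in about 1 of 20 groups, a rate that need not hold here, since some of these probes were named for a wide range or a small p. It was met 5 times (4.17%), each time in females. Female 4 was highest for Cdh1, at 6.99 against 6.85 to 6.87, and lowest for 2 probes of Cdh11, at 0.63 against 1.05 to 1.09 with A_43_P21114 and at -0.83 against -0.36 to -0.26 with A_44_P961744. Female 4 was also lowest of the females for the mean of the fibroblast (6.30), bone (8.15) and endothelial (1.49) lists, and the part of these cells was not tested. Female 7 was highest for Cldn10, at 4.46 against 4.38 to 4.39. Female 3 was highest for Pcdh1, at 0.0701 against -0.44 to -0.39. No junction probe had a nostril difference that depended on sex at 1%, and 5 of 90 (5.56%) had an unadjusted p under 0.05 there, against 3.08% of all probes.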

How the results depend on the processing

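The count of junction probes past 1% between the sexes was 0 under 18 of 19 alternatives and 1 (Pcdh8) with arrays as independent samples. Of all probes, 12 passed, against 3 with expressed probes only, 1031 with arrays as independent samples, 21 with rat as a random block, 34 with slide as a random block, 641 with slide as a fixed block (which sets 1 female array against 3 arrays of 2 males on slide 1), 6 with the ratio table, 8 by the methods' t-test with adjustment and 9 to 10 with each rat left out. Between rats, 2 junction probes and 768 probes passed. All probes passing were 1305 with 75th percentile scaling, 1514 with normexp and quantile normalization and 1 with slide as a fixed block, where 0 junction probes passed. Leaving out each rat gave 1 to 2 junction probes and 186 to 896 probes. Without a filter on low values 3 junction probes and 980 of all probes passed. Of these 3, Cdh8 A_44_P285547 was not detected on any array. Pcdh7 passed without any 1 rat (adjusted p 0.00132 to 0.00796). Pcdh9 lost its call without rat 1 (0.0104), 4 (0.0148), 5 (0.0105), 6 (0.0105), 7 (0.0139) or 8 (0.0203), and without a filter on low values (0.0122). Its probe A_44_P900530 passed with normexp (0.00945) and without a filter (0.00955). Why these settings differ was not tested. Between nostrils 0 junction probes passed under all 13 alternatives, with 1 to 11 at an unadjusted p under 0.05 (1.47% to 8.33% of all probes). Expressed junction probes numbered 104 by the positive-and-significant call and 80 when all 15 arrays were required. With 75th percentile scaling 15 probe pairs passed and 23 had an r above 0. The sexes could not be paired within rats, since they share no rat, and the main fit between the sexes holds no term for slide. Signals under about 10 to 14 intensity units could not be told from background, and transcripts below that were not detectable.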
